A study of Homo sapiens with 6 samples.

Results

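The genes described here are 9 transcriptional targets and regulators of the tumour suppressor p53: MDM2, MDM4, SESN1, ZMAT3, BTG2, XPC, DDB2, CCNG1 and TP53INP1. Members were taken by name, as every probe set of the array whose only gene symbol is one of these. This gave 28 of 54613 probe sets, for 8 of the 9 genes (of 19775 genes measured); BTG2 had no probe set under its own symbol in the annotation used and was not analysed here. RNA came from MDA-MB-231, an invasive breast cancer line without hormone receptors that carries a missense mutation in its p53 gene. The control cells carried the pLKO.1 lentiviral vector with a hairpin against GFP (shGFP, 3 arrays), and the knockdown cells the same vector with a hairpin against ATAD3A (shATAD3A, 3 arrays), an ATPase of the inner mitochondrial membrane. Both groups were puromycin-resistant stable lines at passage 2, selected in 1.0 µg/ml puromycin for 2 weeks. The labels do not say whether the replicates were separate cultures or infections, so a p-value here reflects no more than the scatter among these 6 arrays, and part of that scatter may be technical.

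p53 is a transcription factor that is held at a low level by MDM2, a ubiquitin ligase, and by MDM4, a related protein that binds p53 and pairs with MDM2. When p53 is stabilised by DNA damage or other stress, it switches on genes of growth arrest, DNA repair, autophagy and cell death, and MDM2 itself, which closes a feedback loop. Most missense mutants of p53 bind their target sites poorly, and the same targets are also driven by other factors. In a line with mutant p53, transcript levels of these genes are thus no direct reading of p53 activity.

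The binding site of p53 is a pair of 10-base half-sites, and members hold such letters in their promoters to very different degrees. The closest match in RefSeq promoter windows (GRCh38.p14, 250 bases before to 50 after a start site) is shown for the 5 members with at least 15 of the 20 consensus letters. Capitals mark the C and G at the core of each half-site, which were required to match; the other letters could differ.

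DDB2: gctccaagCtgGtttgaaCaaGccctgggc

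MDM2: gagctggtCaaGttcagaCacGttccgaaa

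SESN1: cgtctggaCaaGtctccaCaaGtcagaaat

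ZMAT3: ctgccgggCctGctccgcCaaGcacatgcg

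MDM4: aaatatcaCaaGaccctgCaaGtccctcac

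The DDB2 element (chr11:47214964-47214993, plus strand) matched 19 of the 20 letters of the p53 consensus, a match that 0.0541% of 35116 windows reach. That of MDM2 (chr12:68808918-68808947, plus strand) matched 18 letters, reached by 0.285% of windows. It lies before the downstream of the MDM2 start sites, the promoter through which p53 is known to drive this gene; the best match at the upstream start sites had 12 letters. In SESN1 (chr6:109009013-109009042, minus strand) 17 letters matched (1.12% of windows). ZMAT3 (chr3:179071868-179071897, minus strand) had 16 letters (4.05% of windows) and MDM4 (chr1:204516181-204516210, plus strand) 15 letters (11.5% of windows), a share at which a match is common. The best matches of CCNG1, BTG2 and XPC had 13, 11 and 10 letters. TP53INP1 had no window among the promoter sequences used, so it was not searched. The consensus is its own reverse complement, so a single pass covered both strands; half-sites with a spacer between them, and sites in introns, were not searched. A match is a description of these letters and not a measured binding site.

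Levels are deposited log2 values per probe set. A change is the knockdown mean less the control mean. Errors of levels are SDs (n = 3 arrays), and errors of changes are limma standard errors. Levels of different probe sets are not comparable. The values form a low mode, which holds little signal, and a broad upper range, and the boundary between them lay at 4.78. Of the 28 member probe sets, 17 had a mean above this boundary and 11 lay in the low mode. Members were tested in a limma fit of all 54613 probe sets, where 22.4% passed at an adjusted p of 0.05, 12% higher and 10.5% lower in knockdown. Among the 21741 probe sets above the low mode, 52.3% passed, 28.2% higher and 24.1% lower. Of the member probe sets, 2 were higher and 6 lower in knockdown, all 8 among the 17 above the low mode. Read against the 52.3%, the members changed about as often as other expressed probe sets. Their median change was -0.06 over those 17, beside 0.02 over all probe sets above the low mode. The groups did not overlap on 9 of the 17, beside 67.2% of all probe sets above the low mode (33.2% of all probe sets). The 2 increases were both of MDM2, and the 6 decreases were of MDM4, ZMAT3 and TP53INP1. SESN1, XPC, DDB2 and CCNG1 did not pass.

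**Figure D1:**
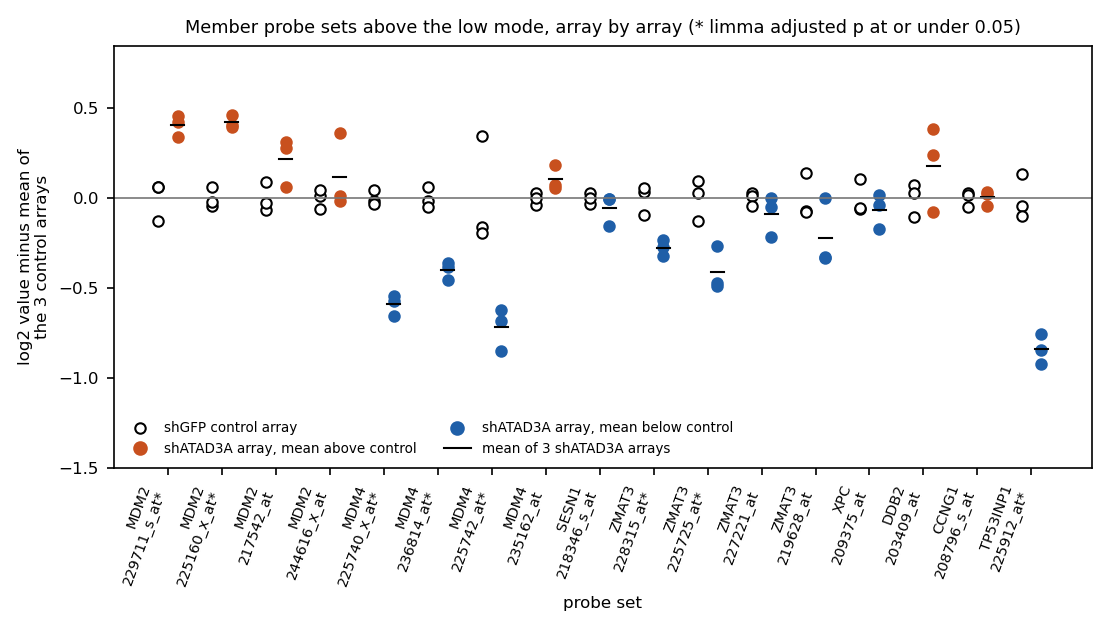
Log2 value of each array minus the mean of the 3 control arrays (y axis), for the 17 member probe sets above the low mode (x axis). Open points are shGFP arrays and filled points shATAD3A arrays, with a bar at their mean; the groups are fully apart for both bright MDM2 probe sets, for 3 MDM4 probe sets that fell, for TP53INP1, for 2 ZMAT3 probe sets that fell and for MDM4 235162_at, which was higher but did not pass, while those of CCNG1 coincide.

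ATAD3A, the targeted gene, was lower in the knockdown arrays. It read 7.73, 7.78 and 7.80 in control and 7.41, 7.03 and 7.39 in knockdown. The change was -0.49 ± 0.107 (SE; limma adjusted p = 0.022). These ATAD3A values come from an x_at probe set alone, a kind left out in a setting given below. The knockdown was thus not checked on another probe set. With any 1 of the control arrays left out, the adjusted p rose to between 0.0596 and 0.0748. As markers of the line, 9 of 9 genes such as VIM and EGFR were above the low mode, of which 1 rose and 6 fell. Of 6 luminal genes, listed in advance as low in this line, only ESR1, PGR and FOXA1 were in the low mode. The other 3 were above it in control, with KRT19 at 12.85, GATA3 at 8.61 and ERBB2 at 7.80; KRT19 and ERBB2 rose by 0.25 and 0.51, and GATA3 changed by -0.63. Of markers of other cell types, COL1A1 was above the low mode out of 10 fibroblast genes, LAPTM5 out of 9 leukocyte genes and PECAM1 out of 5 endothelial genes. The other genes of these 3 lists were in the low mode. The summed log2 level of the leukocyte list ranged from 34.3 to 34.8 in control and from 31.5 to 31.9 in knockdown, and 3 of its genes fell. That of the endothelial list ranged from 17.2 to 17.9 and from 15.2 to 16.3, with 2 genes lower. That of the fibroblast list ranged from 32.6 to 33.5 and from 34.3 to 34.9, with 2 genes higher. The fibroblast genes that rose were COL1A1, by 1.01 on its brightest probe set, and LUM, by 0.55 within the low mode. The leukocyte genes that fell were CD14 (-1.60) and LYZ (-0.18), both in the low mode, and LAPTM5 (-0.94), above it. The endothelial genes that fell were PECAM1 (-1.27), above the low mode, and KDR (-0.44), within it. The part of other cells in the results below was not tested.

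Among the regulators, MDM2 rose and MDM4 fell. The brightest MDM2 probe set (229711_s_at) read 10.75, 10.95 and 10.95 in control and 11.31, 11.23 and 11.34 in knockdown. Its change was 0.41 ± 0.0647 (SE; limma adjusted p = 0.00631), or 32.9% higher. Every knockdown array was thus above every control array. A second MDM2 probe set (225160_x_at) read 9.38, 9.27 and 9.29 in control and 9.78, 9.72 and 9.71 in knockdown, again with no overlap. This change was 0.42 ± 0.0394 (SE; limma adjusted p = 0.000776). The change of 225160_x_at relative to 229711_s_at within arrays was 0.01 (95% interval -0.22 to 0.25). The dimmer probe sets 217542_at and 244616_x_at, at 5.24 and 5.19 in control, had changes of 0.22 (limma adjusted p = 0.126) and 0.12 (limma adjusted p = 0.631). Without knockdown replicate 2, 217542_at passed with 0.30 (limma adjusted p = 0.0211). The other 6 MDM2 probe sets lay in the low mode, with none past the test.

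Genes that lie next to MDM2 on its chromosome were also higher in knockdown. The median change of the 25 measured genes on either side was 0.23, while for the other members with probe sets it lay between -0.02 and 0.02. With that median removed, MDM2 read 0.18 on 229711_s_at (limma adjusted p = 0.106) and 0.19 on 225160_x_at (limma adjusted p = 0.0153), so the call on the brightest probe set was lost. DNA copy number was not analysed here, and its part in the MDM2 change was not tested.

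MDM4 fell on its 2 brightest probe sets. On 225740_x_at it read 10.25, 10.24 and 10.31 in control and 9.73, 9.61 and 9.70 in knockdown. The change was -0.59 ± 0.0403 (SE; limma adjusted p = 0.000253), a percent difference of -33.4. On 236814_at the arrays read 10.21, 10.29 and 10.18 in control and 9.78, 9.87 and 9.85 in knockdown. The change was -0.40 ± 0.0419 (SE; limma adjusted p = 0.00124). The groups did not overlap on either. A dimmer probe set, 225742_at, read 6.23, 6.73 and 6.19 against 5.76, 5.70 and 5.54, with a change of -0.72 ± 0.158 (SE; limma adjusted p = 0.0238). That call was lost without any 1 of the knockdown arrays (limma adjusted p between 0.053 and 0.0848).

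One MDM4 probe set went against the others. On 235162_at the control arrays read 5.55, 5.62 and 5.58 and the knockdown arrays 5.66, 5.77 and 5.64, a change of 0.11 (limma adjusted p = 0.17) with no overlap between the groups. Relative to 236814_at within the same arrays, it was higher in knockdown by 0.50 ± 0.0733 (SE; limma adjusted p = 0.0025, over 8086 such differences, of which 24.6% passed). None of the other 8 differences between member probe sets of 1 gene passed this test. A test of each probe set against all others of its gene, limma's diffSplice, called 7 member probe sets above the low mode. Of these, 5 have a within-array difference. On simulated data with 200 of 31839 probe sets shifted, 28.78% of its calls fell in genes without a shift. Calls on unshifted probe sets of the shifted genes were not counted as false. In the data it called 25.3% of probe sets, a far larger share, so the simulated rate cannot be applied to the member calls. Which MDM4 transcripts each probe set reads is not given in the sources used here.

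The list of p53 regulators, which counts MDM2 and MDM4, went both ways. Of its 30 measured genes, 5 rose (MDM2 among them) and 7 fell (MDM4 among them), and 18 did not pass, with a median change of 0.01. Counts over lists use the brightest probe set of each gene, in a limma fit of 19775 genes of which 33.6% passed (19.7% higher, 13.9% lower). Of those above the low mode 62% passed (36.5% higher, 25.4% lower). In this list 3 genes rose without control replicate 2 or without knockdown replicate 2, and 1 rose with s_at and x_at probe sets left out. HIPK2, a kinase that phosphorylates p53 and promotes cell death, read 11.93 ± 0.019 in control and fell to 11.10 ± 0.083 in knockdown (SD, n = 3), with a limma adjusted p of 5.289e-05. All of its 6 probe sets above the low mode fell, by 0.65 to 0.83. PPP1R13L, which encodes the p53 inhibitor iASPP, changed by -0.74 (limma adjusted p = 5.697e-05), while its relative PPP1R13B (ASPP1), a p53 co-activator, rose by 0.71 (limma adjusted p = 0.0141). KMT5A, a methyltransferase that modifies histone H4 and p53, rose by 0.69. ATM, the kinase of the DNA break response, changed by -0.66 on its brightest probe set (limma adjusted p = 0.00109), but its other probe sets above the low mode gave 0.08 and 0.11 and did not pass.

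Of the 9 measured genes of the list of MDM2 and MDM4 and their partners, 3 rose and 3 fell, MDM2 and MDM4 included. MTBP, which binds MDM2, changed by -0.36 (limma adjusted p = 0.0345), a call lost without control replicate 3 or any 1 of the knockdown arrays (limma adjusted p between 0.0751 and 0.0927). DAXX, an adaptor between MDM2 and the deubiquitinase USP7, changed by -0.51 (limma adjusted p = 0.00033), with a median of -0.28 over its neighbouring genes. AKT1, a kinase that phosphorylates MDM2, rose by 0.43 (limma adjusted p = 0.00621), and RYBP, which binds MDM2, rose by 0.33 (limma adjusted p = 0.00236). The RYBP call was lost with s_at and x_at probe sets left out (0.07, limma adjusted p = 0.151), on a probe set in the low mode. USP7 had a change of 0.16 (95% interval -0.03 to 0.34) that did not pass.

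**Figure D2:**
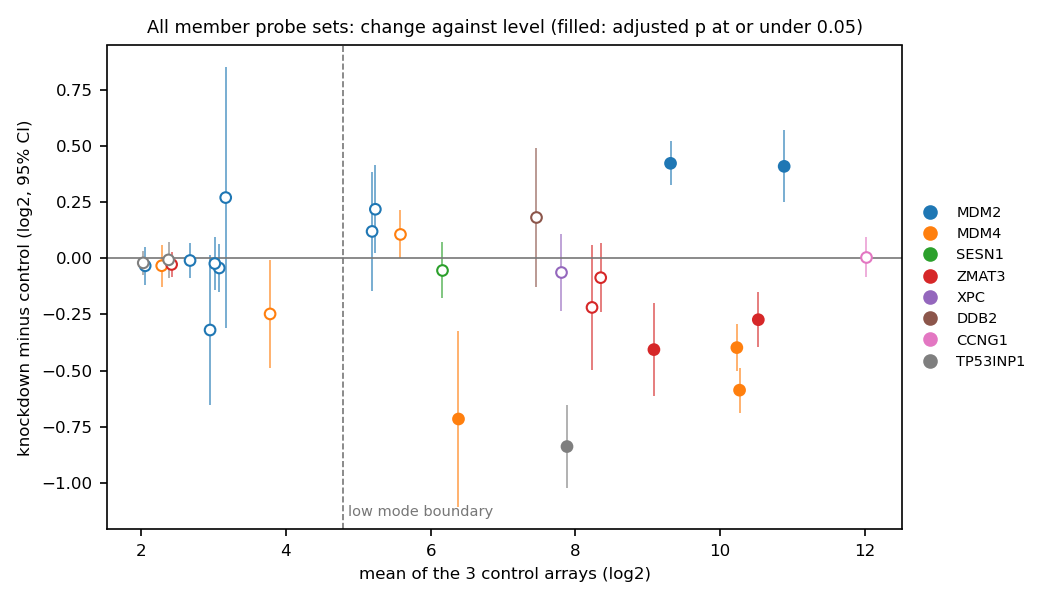
Change of all 28 member probe sets (knockdown minus control, log2, with 95% intervals, y axis) against the mean of the 3 control arrays (log2, x axis). Filled points passed at an adjusted p of 0.05, and all of them lie to the right of the dashed low mode boundary at 4.78.

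Of the growth arrest members, ZMAT3 fell on some of its probe sets and CCNG1 stayed at the same value. ZMAT3, a zinc finger protein that binds RNA and regulates splicing, read 10.56, 10.43 and 10.58 in control and 10.21, 10.30 and 10.26 in knockdown on 228315_at. This was a change of -0.27 ± 0.0498 (SE; limma adjusted p = 0.0111), with no overlap between groups. On 225725_at the change was -0.41 ± 0.0839 (SE; limma adjusted p = 0.0183), from values of 9.11, 9.18 and 8.96 to 8.82, 8.61 and 8.60. The call on 225725_at was lost without control replicate 1 or 2 and without knockdown replicate 2 or 3 (limma adjusted p between 0.0573 and 0.0662). The probe sets 219628_at and 227221_at gave -0.22 (limma adjusted p = 0.294) and -0.09 (limma adjusted p = 0.514), and their groups overlapped. None of these differed from 228315_at beyond the test.

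CCNG1, the atypical cyclin G1, which recruits the phosphatase PP2A to MDM2, read 12.05, 11.97 and 12.04 in control and 12.05, 11.97 and 12.04 in knockdown at this rounding. Its change was 0.01, with a 95% interval of -0.09 to 0.10. By contrast CCNG2, its closest relative, read 11.39 ± 0.058 in control and fell to 10.43 ± 0.083 in knockdown (SD, n = 3), with a limma adjusted p of 4.959e-05. CCNG2 also fell on its second brightest probe set, by 1.03, and on 2 dimmer probe sets whose knockdown means, 4.32 and 4.38, lay in the low mode, where a fold is imprecise. The difference between the changes of CCNG1 and CCNG2 was not tested, although their intervals, -1.10 to -0.84 for CCNG2, do not meet.

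BTG2, a growth inhibitor that brings the CCR4-NOT deadenylase to messenger RNA, has no value here. Its relatives BTG1 and BTG3 both fell, by 0.49 (limma adjusted p = 0.000244) and 0.50 (limma adjusted p = 0.000108). Both calls were lost with s_at and x_at probe sets left out, when BTG1 read -0.01 (limma adjusted p = 0.928) and BTG3 -0.25 (limma adjusted p = 0.0894), on probe sets in the low mode. The deadenylase subunits CNOT7 and CNOT8, to which BTG proteins bind, changed by -0.70 and -0.62 (limma adjusted p = 0.00072 and 0.008), while the subunits CNOT9 and CNOT2 rose by 0.55 and 0.42. TOB1, another relative of BTG2, rose by 0.34 (limma adjusted p = 0.0287). The TOB1 call was lost without control replicate 1 or 3 and without knockdown replicate 1 or 2 (limma adjusted p between 0.0712 and 0.0932). Over that list of 18 measured genes, 6 rose and 6 fell. Of its 17 genes above the low mode 70.6% passed, beside 62% of all genes above it. In the ZMAT family of 5 genes, 1 rose and 2 fell, ZMAT3 being the smaller of these decreases. The rise was of ZMAT2, a splicing factor, by 0.24 (limma adjusted p = 0.0227), and was lost without control replicate 2 or 3 and without knockdown replicate 1 or 2 (limma adjusted p between 0.0523 and 0.0737). ZMAT1 went from 5.63 ± 0.26 into the low mode at 3.18 ± 0.35 (SD, n = 3), where a fold is imprecise, and its neighbouring genes had a median of -0.41.

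Across the list of p53 targets in growth arrest, 5 of 17 measured genes rose and 6 fell, with a median of -0.0037. CDKN1A, the inhibitor p21 and the classic target of p53, changed by -1.48 (limma adjusted p = 1.739e-06). In the other direction, the stress cytokine GDF15 rose by 1.85 and the 14-3-3 protein SFN by 0.99. With s_at and x_at probe sets left out, the GDF15 change was -0.03 (limma adjusted p = 0.69), read on a probe set in the low mode. CCNK, a cyclin of transcription kinases, rose by 0.54.

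Both damage sensors of nucleotide excision repair gave changes that did not pass. XPC, which recognises distorted DNA and opens the repair of the whole genome, read 7.90, 7.74 and 7.74 in control and 7.63, 7.81 and 7.76 in knockdown. Its change was -0.06 (95% interval -0.23 to 0.11; limma adjusted p = 0.722). DDB2, the subunit that binds ultraviolet lesions, read 7.53, 7.48 and 7.34 in control and 7.37, 7.69 and 7.83 in knockdown, so that knockdown replicate 1 lay among the controls and the other knockdown arrays above all of them. The change was 0.18 (95% interval -0.13 to 0.49; limma adjusted p = 0.477), and without knockdown replicate 1 it was 0.31 and passed (limma adjusted p = 0.0479). The interval for DDB2 includes the 0.41 found for MDM2.

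Partners of these sensors moved unevenly. CETN2, a subunit of the XPC complex, fell by 0.35 (limma adjusted p = 0.000799), while RAD23B, its other subunit measured here, rose by 0.24 (limma adjusted p = 0.0307). The RAD23B call was lost without any 1 of the control arrays (limma adjusted p between 0.0572 and 0.0968) and without knockdown replicate 3 (limma adjusted p = 0.0851). Other bright RAD23B probe sets, at 12.25 and 11.12 in control, rose by 0.24 and 0.21. Both passed in the fit of all probe sets (limma adjusted p = 0.0164 and 0.033). The dimmest RAD23B probe set, at 5.45 in control, changed by -0.35 and did not pass (limma adjusted p = 0.262). DDB1, the partner of DDB2, had a change of -0.04 (95% interval -0.15 to 0.08). Of the cullins that complete their ubiquitin ligase, CUL4B changed by -0.69 (limma adjusted p = 4.39e-05), with a neighbour median of -0.43, and CUL4A by 0.15 on its brightest probe set (limma adjusted p = 0.117), but by 0.56 with s_at and x_at probe sets left out (limma adjusted p = 0.00193).

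In the whole repair list, 12 of 33 measured genes rose and 5 fell, all 33 being above the low mode, and the median change was 0.10. Thus 51.5% passed, beside 62% of all genes above the low mode, of which 36.5% were higher. The polymerase POLE rose by 1.05 and the single-strand binding subunits RPA1 and RPA2 by 0.59 and 0.50. ERCC6, the factor that starts repair at stalled RNA polymerase, changed by -1.57 on its brightest probe set, to 4.77 at the edge of the low mode, and by -0.68 (limma adjusted p = 0.0599) on another. XRCC1, a scaffold of strand break repair, changed by -0.55 (limma adjusted p = 0.0264), a call lost without knockdown replicate 2 or 3 (limma adjusted p = 0.0761 and 0.0611). Of the p53 targets in DNA repair, 4 of 12 rose and 1 fell. The ribosomal protein homologue RPS27L and the F-box protein FBXO22 rose by 0.40 and 0.32. FANCC, of the Fanconi anaemia pathway, rose by 0.37, but gave -0.11 with s_at and x_at probe sets left out (limma adjusted p = 0.528), again on a probe set in the low mode. POLH, the polymerase that passes ultraviolet lesions, changed by -0.51, beside a neighbour median of -0.20.

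Of the members in stress metabolism and autophagy, TP53INP1 showed the largest change of any member probe set that passed. TP53INP1 is a nuclear and autophagosome protein that binds p53 and members of the ATG8 family. It read 8.02, 7.84 and 7.79 in control and 7.13, 7.04 and 6.96 in knockdown on 225912_at, so that the groups were far apart. The change was -0.84 ± 0.0752 (SE; limma adjusted p = 0.000676), or a percent difference of -44.1. By size, this exceeded the change of 87.5% of all probe sets above the low mode. Its remaining probe sets, 235602_at and 244721_at, lay in the low mode.

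Its relative TP53INP2 fell as well, from 8.80 ± 0.091 to 8.06 ± 0.10 (SD, n = 3), a change of -0.74 (limma adjusted p = 0.000392). HIPK2, given above, and PRKCD, kinases that act with TP53INP1 on p53, both fell, PRKCD by 0.52 (limma adjusted p = 0.00106). GABARAP, an ATG8 protein of autophagosomes, changed by -0.56 (limma adjusted p = 0.00079). The list of TP53INP and ATG8 genes also holds HIPK2, PRKCD, VMP1 and TP73, and it counts TP53INP1 itself. In this mixed list, 7 of 12 measured genes fell and 0 rose on the brightest probe set. HIPK2, PRKCD and VMP1, which changed by -0.20, were among those that fell. Of the other ATG8 genes above the low mode, GABARAPL2 changed by -0.22, while GABARAPL1 gave 0.04 and did not pass. The 7 were among the 9 genes above the low mode, where 25.4% of all genes fell. A second probe set of MAP1LC3B, an ATG8 protein, was higher by 0.21 (limma adjusted p = 0.0105 in the fit of all probe sets), while its brightest gave 0.04. The median of that list was -0.21, beside a median of -0.0008 over all genes.

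SESN1, a stress-induced inhibitor of mTORC1 signalling that senses leucine, read 6.19, 6.13 and 6.16 in control and 6.16, 6.01 and 6.16 in knockdown. The change was -0.05 (95% interval -0.18 to 0.07; limma adjusted p = 0.659), with overlapping groups. SESN2 had a change of 0.07 (95% interval -0.17 to 0.30) at 5.20 in control, near the low mode boundary. SESN3, which FOXO factors are known to drive, read 5.84, 6.27 and 6.16 in control and fell into the low mode in knockdown, at 4.26, 3.69 and 3.33 (limma adjusted p = 0.000622). Its change of -2.33 is imprecise for that reason.

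**Figure D3:**
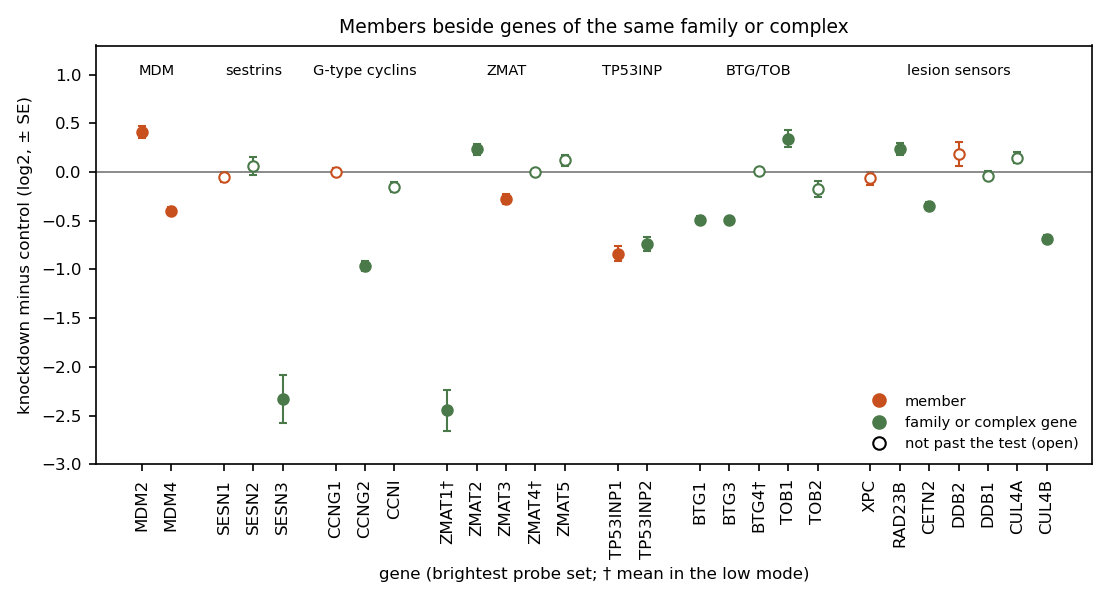
Change on the brightest probe set of each gene (knockdown minus control, log2, ± SE, y axis) for members and for genes of the same family or complex (x axis, grouped). SESN3 and ZMAT1 show the largest decreases, while SESN1, CCNG1, XPC and DDB2 lie near 0 and did not pass.

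Over the p53 targets in metabolism and autophagy, 4 of 18 measured genes rose and 4 fell. TIGAR, which lowers glycolytic flux, rose by 1.12, the cytochrome oxidase assembly factor SCO2 by 0.64 and the AMPK subunit PRKAB1 by 0.53. LPIN1, a phosphatidic acid phosphatase, and DDIT4, an inhibitor of mTORC1, changed by -0.90 and -0.60. Targets in apoptosis rose in 10 of 23 cases and fell in 6. Of the 21 above the low mode 76.2% passed, beside 62% of all genes above it. The membrane protein PERP rose by 1.01, the nuclease AEN by 0.82 and the oxidoreductase TP53I3 by 0.69. Of the receptors of the death ligand TRAIL, the decoy TNFRSF10D changed by -1.76 and the death receptor TNFRSF10B by -0.94 on its brightest probe set.

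Over the 4 target lists, 23 of 67 measured genes rose, 15 fell and 29 did not pass, with a median change of 0.07. Of the 59 above the low mode, 38 passed, or 64.4%, beside 62% of all genes above the low mode. With s_at and x_at probe sets left out, 14 rose.

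**Figure D4:**
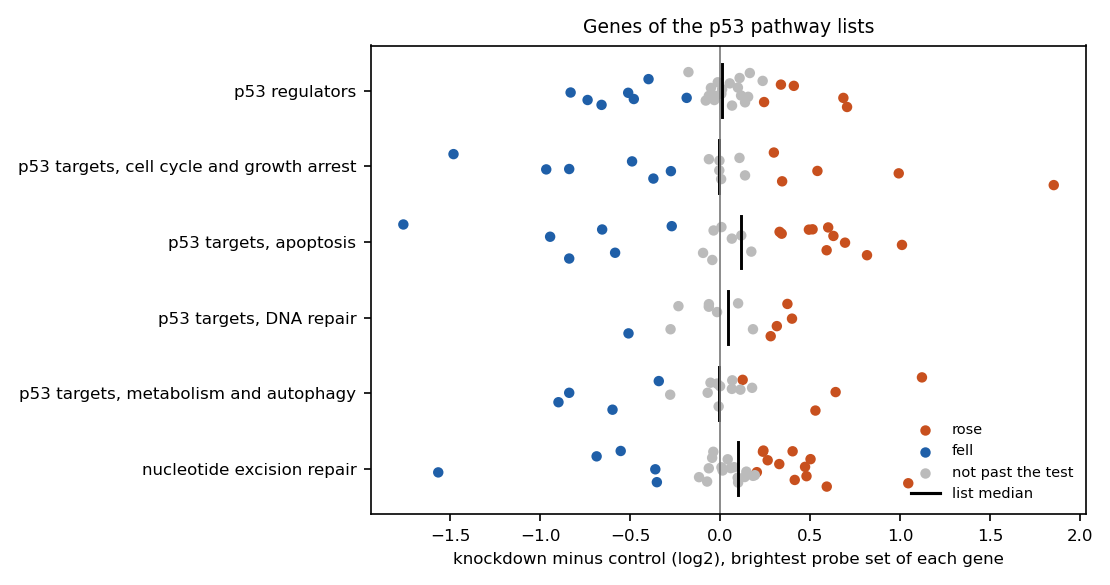
Change on the brightest probe set of each gene (knockdown minus control, log2, x axis) for 6 gene lists (rows), with a bar at each list's median. Each of these lists holds genes that rose and genes that fell, and the medians lie between -0.0040 and 0.12.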

How the data were processed

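The authors deposited 1 table of log2 values for 6 Affymetrix U133 Plus 2.0 arrays (250 ng total RNA each, per the labels' protocols); the log2 scale was read from the values, which run from 0.826 to 16.6. Per the submitters' processing notes, Partek software was used (version not stated there), while the summary and normalization methods are not given in the sources used here. Array medians lay between 3.16 and 3.23. Of 54675 probe sets, 62 controls were set aside, 41091 had 1 symbol in GEO's platform annotation, 1801 several and 11721 none. The gene table (GRCh38.p14) updated 0 symbols and lacked the Entrez ID of 54 probe sets. The number of columns left unmatched was 0.

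Knockdown and control arrays were set against each other by two-sided moderated tests from limma 3.58.1 (R 4.3.3) without a covariate. P-values were adjusted by Benjamini-Hochberg over all features at a threshold of 0.05, over all probe sets and, for lists, over the brightest probe set per gene. Simulated data for the comparison over 54613 probe sets held 50 changed probe sets of each size tried. The fit recovered 18% of changes of 0.3 on the log2 scale, 52% of 0.5, 86% of 1 and 100% of 2, with 8 false among 136 calls. In the data 22.4% of probe sets passed, a far larger share, so these rates cannot be applied to the members. Differences between probe sets of a gene were tested with diffSplice and, added after seeing the data, as within-array differences from the brightest probe set. The latter gave 5.102% false calls in a simulation with 200 of 8086 differences shifted, beside 24.6% that passed in the data. The low mode boundary, chosen after seeing the data, was the lowest density between modes. Named genes were ATAD3A, every member, up to 3 of the largest increases and decreases per list among genes that passed without overlap, and family genes; not every one is printed. Members and lists were chosen with earlier results of these data known. The number of arrays limits the precision.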

Additional observations from a re-analysis of the deposited data

How the results depend on the processing

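Each member probe set was refitted under 16 other settings. The calls on TP53INP1 (225912_at), MDM4 (225740_x_at and 236814_at) and MDM2 (225160_x_at) held in all 16. MDM2 on 229711_s_at held in 15, MDM4 on 225742_at in 12, ZMAT3 on 228315_at in 14 and ZMAT3 on 225725_at in 11. At an adjusted threshold of 0.01, 3 member probe sets were lower and 2 regulators rose. With the neighbour median removed, 1 member probe set was higher and 11 were lower, since that setting also takes 0.23 from MDM2 probe sets in the low mode. With s_at and x_at probe sets left out, 14 p53 targets and 1 regulator rose, and the gene-level changes of GDF15, FANCC and PPP2R1B reversed to -0.029, -0.11 and -0.12; the cause was not tested. Leaving out each array gave 2 to 3 higher and 4 to 6 lower member probe sets, and 3 to 5 regulators that rose. The within-array difference called 1 member probe set and diffSplice 7, of which 2 have no within-array difference, so that the like counts are 1 and 5. Replicate numbers did not pair the samples (correlations of deviations -0.2544, -0.1582 and 0.05089). With the replicate number as a block, 5 member probe sets were lower (ZMAT3 on 228315_at at adjusted p = 0.051), 3 regulators rose and 10773 probe sets changed in place of 12240. Of 62 list genes refitted, 14 changed their side of the threshold or their direction in at least 1 setting, MTBP in 8, RAD23B in 8 and TOB1 in 7.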

Other observations

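Genes of a list built around sestrins and mTORC1 signalling moved in both directions. The list holds the sestrins, the GATOR complexes, the Rag GTPases and AMPK, and also CASTOR1, CASTOR2, SAMTOR, KEAP1 and SQSTM1. Of its 24 measured genes, 7 rose and 7 fell. Of the 20 above the low mode 60% passed, beside 62% of all genes above it. SEH1L, a subunit of GATOR2 and of the nuclear pore, changed by -1.02, and SAMTOR, a sensor of S-adenosylmethionine, by -0.97. RRAGA, a Rag GTPase, rose by 0.85 and NPRL3, a subunit of GATOR1, by 0.71, while another NPRL3 probe set gave -0.24 (limma adjusted p = 0.344). SQSTM1, an autophagy receptor, rose by 0.65.

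Of the 14 genes of G-type cyclins and their partners, 4 rose and 2 fell. Among regulatory subunits of PP2A, which cyclin G1 binds, PPP2R5A and PPP2R5E rose by 0.48 and 0.35 and PPP2R5D changed by -0.88, with a median of -0.26 over the neighbouring genes of PPP2R5D. The scaffold subunit PPP2R1B rose by 0.81 on its brightest probe set, but gave -0.12 with s_at and x_at probe sets left out (limma adjusted p = 0.335).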
